A study of Mus musculus with 12 samples.

Results

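The genes described here are 35 genes of fatty acid oxidation, of the peroxisome and of their transcriptional control, chosen by name and found by symbol among the 16971 genes listed for GFP(+) cells sorted from mouse liver. They encode the PPAR receptors and their coactivators, the enzymes that activate fatty acids and carry them into mitochondria, the enzymes of mitochondrial and peroxisomal β-oxidation, and a pair of linked enzymes of ketone body and pyruvate use. All 35 were found. The normalized counts of 33 of them summed to at least 10 over the libraries in the table, which was the minimum for counting a gene, and those of *Ppara* and *Ppargc1a* did not.

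The mice were Prom1CreERT2-nLacZ/+;Rosa26Lsl-GFP/+ animals labelled C57BL/6 (by the methods the Cre line was C57BL/6N and the reporter line C57BL/6J), given tamoxifen 7 days before surgery as adults of 6 weeks. Cre under the *Prom1* locus then switches on GFP for good in cells that express *Prom1* at that time and in their progeny, so GFP shows a cell's past and not its present type. All groups share this genotype and tamoxifen. Day 0 libraries came from mice that the labels call sham and that the methods describe as taken before bile duct ligation (BDL), a surgical block of bile flow, and the other groups were taken 3 and 14 days after BDL. The sort took live GFP(+) cells of the nonparenchymal fraction, from which most hepatocytes are spun out. By the study's account the mix of males and females differed between the groups, and sex and group cannot be told apart here.

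The deposited table gives 1 mean per group of the normalized counts. It lists no library on its own, so SDs, tests and values by sample cannot be given, and how deeply each library was sequenced is not known. The group means fit the overall mean best as 3, 3 and 4 libraries, 10 in all, and the deviation was then at most 0.683%. The labels describe 6 BDL day 14 libraries, and 2 of them, which are not named, are outside the mean. By the study's account, 2 BDL day 14 samples were dropped once sequenced because too few reads were left after trimming and alignment. Samples of Day 0 and BDL day 3 had been kept out of sequencing for poor RNA quality. Values below are these authors' means, in normalized counts and in the order Day 0, BDL day 3, BDL day 14, and a gene is called higher or lower where the ratio of 2 group means was above 1.5, the fold that the study used. An approximate within-group spread, the pooled SD of the log2 values of single libraries around their group, was worked out for each gene from the gap between its group means and the geometric mean over all libraries. It ran from 0.10 for *Acadl* to 1.34 for *Pex11a* among the 33 genes, with a median of 0.34, and was under 0.5 for 24 of them. A ratio over 2 times this spread is given as a second, stricter description and is not a test.

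Markers of several cell types were read in the same means. The 8 macrophage genes summed to 10190, 19571 and 19336 normalized counts, and the 5 Kupffer cell genes to 9212, 20869 and 1278. *Lyz2* alone had 2280, 4560 and 11200, and so made up most of the last macrophage sum. Of the 8 macrophage genes, 7 exceeded the fold over Day 0 on BDL day 3 (median log2 ratio 0.95). Only *Lyz2* still did so by BDL day 14, when the median log2 ratio of the 8 genes had fallen to 0.20. Cholangiocyte genes other than *Spp1* had low means, where the lowest mean of a macrophage gene was 117, 188 and 128. *Krt19* had 21.5, 12.7 and 14.3, *Epcam* 12.9, 4.97 and 7.69 and *Sox9* 4.26, 1.18 and 0.853. *Krt7* had 10.9, 5.61 and 10.7 and *Cldn4* 2.21, 3.21 and 6.20. Only 7 of the 10 cholangiocyte genes reached the minimum. Of these 7, 2 were higher and 4 lower at BDL day 14 than at Day 0 (21.2% and 28.8% of all genes). *Spp1*, which macrophages also make, held most of that list's sums of 521, 205 and 834. The 12 hepatocyte genes summed to 3640, 1053 and 455, with none at 0 (*Alb* 2440, 642 and 271). The 9 mesenchymal genes summed to 1314, 22.8 and 123, the 6 sinusoidal endothelial genes to 784, 281 and 859, the 7 T, NK and B cell genes to 155, 35.6 and 9.88 and the 6 neutrophil genes to 521, 248 and 162. In such bulk samples, fewer cells of a type and less RNA per cell cannot be told apart.

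β-oxidation shortens fatty acids by repeated rounds of dehydrogenation, hydration, a second dehydrogenation and thiolysis. Long-chain fatty acids are first joined to coenzyme A and passed into mitochondria as carnitine esters, while peroxisomes shorten very long and branched chains with enzymes of their own and release hydrogen peroxide, which catalase removes. In liver this machinery is best known from hepatocytes, where PPARα switches on many of its genes in fasting. Macrophages also run β-oxidation, and there PPARγ and PPARδ are the better known receptors.

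The peroxisomal pair of thiolase genes set the main contrast of the set, and both lie close together on chromosome 9. *Acaa1a* (chr9:119339676-119350299, plus strand, GRCm38) and *Acaa1b* (chr9:119148023-119157093, minus strand) encode closely related enzymes of the last step of peroxisomal β-oxidation. *Ehhadh* (chr16:21761287-21787807, minus strand) encodes the bifunctional enzyme of the steps before it and is a well known PPARα target. Their sequences just upstream of the RefSeq start (GRCm38.p6), each 130 bases and written 5′ to 3′ on the gene's strand, are shown because *Acaa1b* and *Ehhadh* had the lowest ratios of the peroxisomal genes and *Acaa1a* did not. Capitals mark GGGCGG, the GC box, or CCGCCC, the same box on the other strand.
Acaa1a, chr9:119341164-119341293, plus strand: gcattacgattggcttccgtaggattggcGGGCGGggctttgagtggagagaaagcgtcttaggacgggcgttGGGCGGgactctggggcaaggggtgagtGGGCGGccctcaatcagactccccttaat
Acaa1b, chr9:119157094-119157223, minus strand: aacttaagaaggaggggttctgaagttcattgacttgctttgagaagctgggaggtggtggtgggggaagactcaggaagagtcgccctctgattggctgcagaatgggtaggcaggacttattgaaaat
Ehhadh, chr16:21787835-21787964, minus strand: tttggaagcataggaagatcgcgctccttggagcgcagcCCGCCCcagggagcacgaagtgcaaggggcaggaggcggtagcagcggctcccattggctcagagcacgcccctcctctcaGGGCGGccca
The *Acaa1a* window holds 3 GC boxes and that of *Acaa1b* none, while that of *Ehhadh* holds 1 on each strand. The *Acaa1b* and *Ehhadh* windows lie outside the genes as GENCODE M21 draws them, and that of *Acaa1a* lies within its gene, upstream of the RefSeq start and outside the annotated exons, because a longer GENCODE transcript begins before it.

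*Acaa1a* had means of 62.9, 69.5 and 54.7 and stayed within the fold in all 3 comparisons. *Acaa1b* had 19.8, 6.33 and 0.576. It was 3.13-fold lower at BDL day 3 and 34.4-fold lower at BDL day 14 than at Day 0 (log2 ratio -5.10, 5.28 times its spread), and 0.838% of the genes counted had a lower ratio. Its BDL day 14 mean was above the floor of that group (0.244), below which low means cannot be told from 0. That mean is still low, and with a pseudocount of 1 the log2 ratio of *Acaa1b* at BDL day 14 against Day 0 was -3.72. Per kilobase of transcript, *Acaa1b* held 24.7%, 8.68% and 1.09% of the summed signal of the pair. Of the 50-base words of its main transcript, 35.5% also occur in *Acaa1a*, so the counting could have moved reads between the pair.

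*Ehhadh* followed the same course, with means of 60.1, 13.9 and 4.85. It was 4.32-fold lower at BDL day 3 and 12.4-fold lower at BDL day 14 than at Day 0 (log2 ratios -2.11 and -3.63, both over 2 times its spread of 0.89). *Hsd17b4*, which encodes the other peroxisomal bifunctional enzyme, that for branched chains and bile acid precursors, had 72.1, 123 and 60.0. It was 1.71-fold higher at BDL day 3 than at Day 0 and 2.05-fold lower at BDL day 14 than at BDL day 3, at 3.06 and 4.11 times its spread. With quantile normalization the first of these log2 ratios was 0.52 instead of 0.77, which is within the fold. Per kilobase, *Ehhadh* thus went from 42.9% of the pair's signal at Day 0 to 9.24% and 6.78%.

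The highest single library of *Ehhadh* (96.5 normalized counts) and that of *Acaa1b* (29.6) could only belong to Day 0, and held 53.5% and 49.8% of that group's signal. Without them, the log2 ratios against Day 0 were -1.59 (BDL day 3) and -3.11 (BDL day 14) for *Ehhadh* and -1.24 and -4.69 for *Acaa1b*. Hepatocyte markers moved in the same direction, by median log2 ratios of -1.86 and then -2.73, with a lowest value of -3.61 (*Serpina1a*). At BDL day 14 *Ehhadh* and *Acaa1b* had lower log2 ratios than all 12 hepatocyte genes, though *Ehhadh* only by a margin that its highest library covers. At BDL day 3, 2 of these genes had lower log2 ratios than *Ehhadh* and 8 than *Acaa1b*. The part of hepatocyte RNA in these results was not tested.

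Among the other peroxisomal genes, *Cat*, which encodes catalase, had means of 143, 116 and 64.6 and was 2.21-fold lower at BDL day 14 than at Day 0, at 4.57 times its spread. *Pex11a*, which encodes a membrane protein of peroxisome division, had 4.71, 6.36 and 3.45, and its spread of 1.34 exceeded every ratio. *Abcd3*, which encodes an importer of fatty acids into peroxisomes, had 21, 20.0 and 14.7 and stayed within the fold. Of the 7 peroxisomal genes, 1 was higher and 2 were lower at BDL day 3 than at Day 0, where 19.2% and 29.2% of all genes counted were. At BDL day 14, 3 were lower than at Day 0 and 0 higher (28.8% and 21.2% of all genes), and 5 were lower than at BDL day 3 (19.7% of all genes). Their means summed to 384, 355 and 203.

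**Figure D1:**
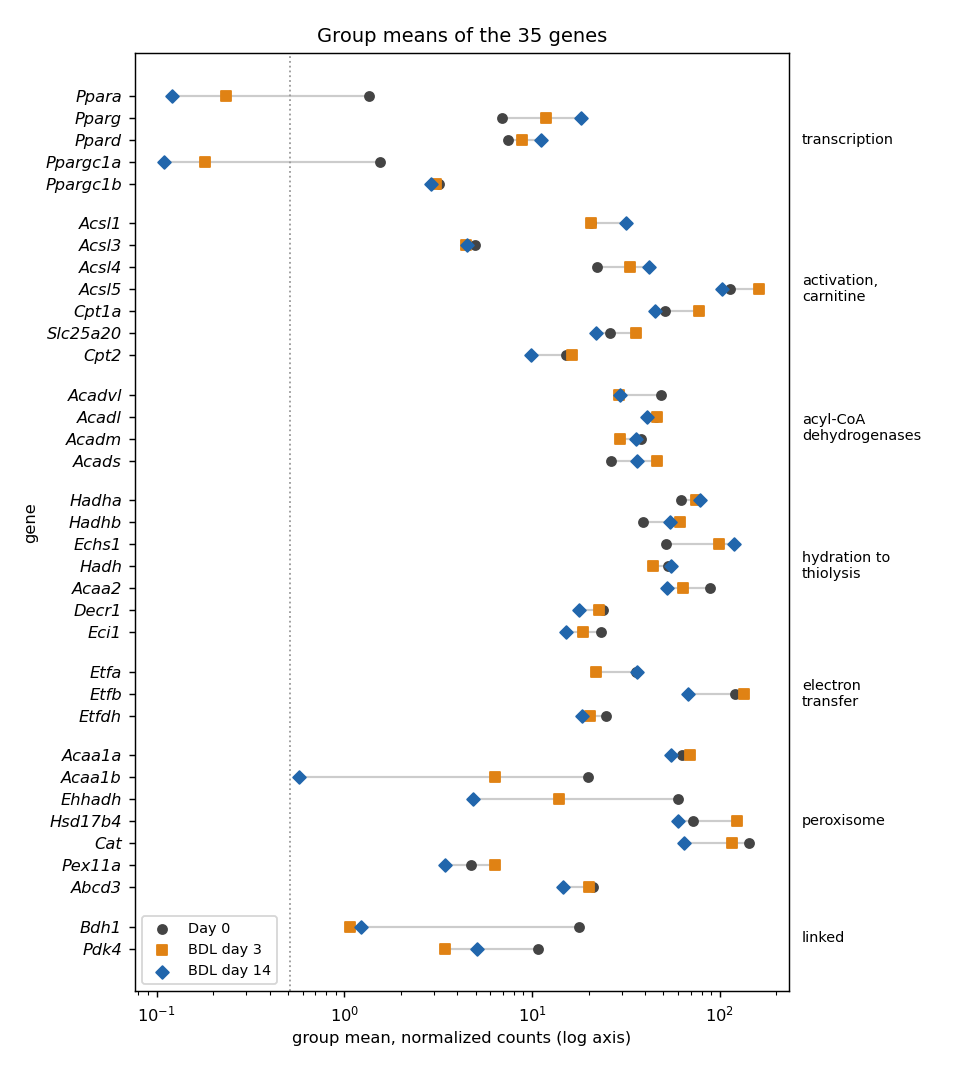
Authors' group means of the 35 genes in normalized counts (log axis), ordered by role, for Day 0, BDL day 3 and BDL day 14. Grey lines join the lowest and highest mean of a gene, and the dotted line marks the floor of Day 0 (0.512). *Acaa1b*, *Ehhadh*, *Bdh1*, *Ppara* and *Ppargc1a* span the widest range, and most other genes lie between 10 and 162.

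Of the transcriptional regulators, *Ppara*, the receptor gene best known from hepatocytes, had means of 1.35, 0.235 and 0.121, and both BDL means were at the floor. Against the floor, which is 4 times the lowest mean of each group, its Day 0 mean was thus at least 4.63-fold and 5.53-fold above the BDL means. *Ppargc1a*, which encodes the coactivator PGC-1α, showed the same course with 1.55, 0.182 and 0.11, at least 5.32-fold and 6.35-fold lower. These are low levels: 1 library held 51.4% of the Day 0 signal of *Ppara* and 57.2% of that of *Ppargc1a*. Without that library the bounds were 3.38-fold and 4.04-fold for *Ppara* and 3.41-fold and 4.08-fold for *Ppargc1a*.

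*Pparg*, which encodes the receptor of adipocytes and of some macrophages, went the other way, with 6.90, 11.9 and 18.3. It was 2.65-fold higher at BDL day 14 than at Day 0 (log2 ratio 1.41, 2.79 times its spread), and 95.2% of the genes counted had a lower ratio. *Ppard*, which encodes the most widely expressed of the 3 receptors, had 7.43, 8.88 and 11.1 with a spread of 0.99, and *Ppargc1b*, a relative of *Ppargc1a*, had 3.18, 3.06 and 2.90. Both stayed within the fold in every comparison, although *Ppard* at BDL day 14 (1.49-fold) came close to it. Per kilobase, *Pparg* made up 59.5%, 70.8% and 75.2% of the PPAR signal. *Ppara* made up 6.02% at Day 0 and, with its mean set to the floor, at most 0.897% and 0.518% at the BDL times.

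The genes of fatty acid activation and of the carnitine shuttle did not share 1 course. *Acsl5*, a long-chain acyl-CoA synthetase and the highest of the 4 per kilobase, had means of 114, 162 and 103. *Cpt1a*, the rate-limiting carnitine palmitoyltransferase of the outer mitochondrial membrane, had 51.3, 77.2 and 45.4. *Slc25a20*, the carnitine carrier of the inner membrane, had 26.0, 35.6 and 21.9, so that all 3 were highest at BDL day 3. Against Day 0, *Cpt1a* was 1.505-fold higher there, a call lost with a pseudocount of 1 or quantile normalization. *Acsl5* (1.42-fold) and *Slc25a20* (1.37-fold) were within the fold. All 3 differences were within 2 times the spread, and all 3 genes were within the fold at BDL day 14 against Day 0. At BDL day 14 they were 1.57-fold, 1.70-fold and 1.63-fold lower than at BDL day 3, which was over 2 times the spread for *Acsl5* and *Cpt1a*. The Kupffer cell genes were also highest at BDL day 3 and lowest at BDL day 14 (above), and their part here was not tested. *Cpt2*, which turns carnitine esters back into acyl-CoA, had 15.2, 16.3 and 9.86 and was 1.54-fold lower at BDL day 14 than at Day 0, within 2 times its spread and within the fold with a pseudocount of 1 (log2 ratio -0.58) or quantile normalization (-0.53).

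The remaining synthetases had another course. *Acsl4*, whose enzyme prefers arachidonic acid, had 22.2, 33.3 and 41.8 and was 1.88-fold higher at BDL day 14 than at Day 0, at 2.54 times its spread. *Acsl1*, the main synthetase of hepatocytes and fat, had 20.7, 20.5 and 31.7, which was 1.53-fold higher at BDL day 14 than at Day 0, within 2 times its spread. *Acsl3*, known from lipid droplets, was low throughout at 4.98, 4.44 and 4.48. Per kilobase, *Acsl5* held 71.4% of the signal of the 4 synthetases at Day 0 and 58.6% at BDL day 14, *Acsl4* 11.2% and 19.1%, and *Acsl1* 14.1% and 19.6%.

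**Figure D2:**
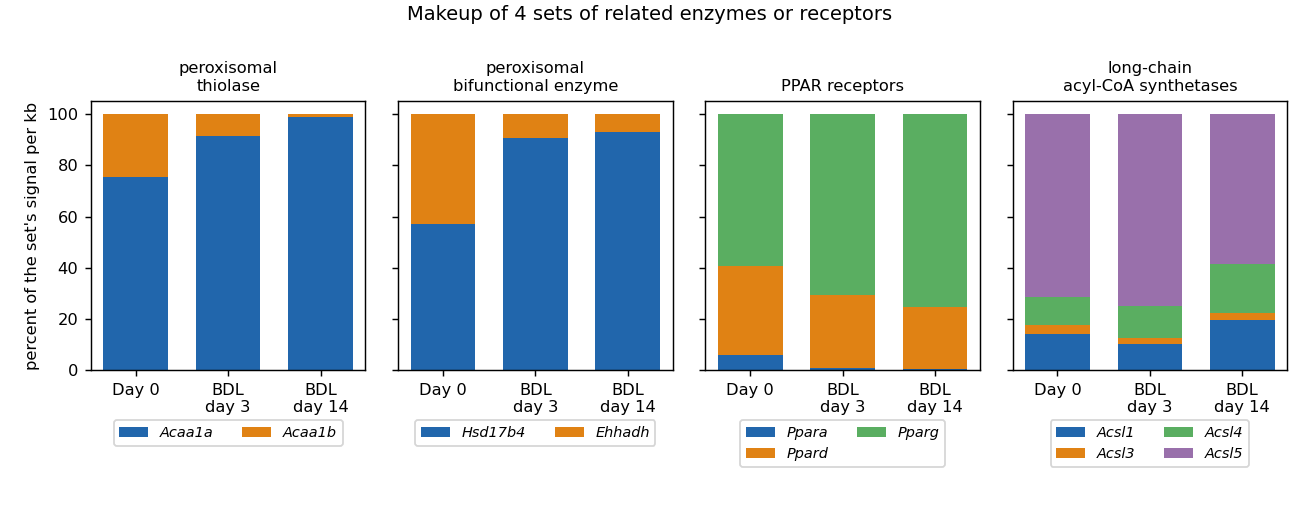
Share of each gene in the summed signal per kilobase of transcript (percent) of its set, for Day 0, BDL day 3 and BDL day 14. *Acaa1b* and *Ehhadh* shrink to 1.09% and 6.78% of their pairs at BDL day 14, *Pparg* grows to 75.2% of the PPAR receptors and *Acsl5* falls to 58.6% of the synthetases.

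The 4 mitochondrial acyl-CoA dehydrogenases, which take the first step for very long, long, medium and short chains, summed to nearly the same signal at each time (159, 151 and 142.5). *Acadl* had the lowest spread of all 33 genes and means of 45.7, 46.3 and 41.1, and *Acadm* had 38.0, 29.4 and 35.8. *Acadvl* had 48.9, 29.0 and 29.5 and was 1.69-fold and 1.66-fold lower at BDL day 3 and BDL day 14 than at Day 0, both over 2 times its spread. *Acads* had 26.2, 46.4 and 36.1 and was 1.77-fold higher at BDL day 3, at 2.69 times its spread. Per kilobase, the very-long-chain enzyme went from 28.6% of the set to 17.4% at BDL day 3, and the short-chain enzyme from 17.7% to 32.3%.

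In the later mitochondrial steps, *Echs1* (chr7:140105710-140116476, minus strand), which encodes the short-chain enoyl-CoA hydratase, also a step of valine breakdown, stood apart. It had 51.5, 98.9 and 119 and was 1.92-fold higher at BDL day 3 and 2.31-fold higher at BDL day 14 than at Day 0. These differences were 4.81 and 6.17 times its spread of 0.20, the highest multiple among the 33 genes at each time. *Acaa2*, which encodes the mitochondrial thiolase of the last step, went the other way with 88.4, 63.6 and 52.3, 1.69-fold lower at BDL day 14 at 2.76 times its spread.

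*Hadha* and *Hadhb*, the subunits of the trifunctional protein of the inner membrane, are neighbours on chromosome 5 and had 61.9, 75.1 and 78.4 and 39.2, 61.6 and 54.0. Only *Hadhb* at BDL day 3 was past the fold, at 1.57-fold higher than Day 0, and with quantile normalization it was within it (log2 ratio 0.49). A processed pseudogene, *Gm13910*, shares 61.5% of the 50-base words of *Hadhb*, and with its own means of 4.40, 5.05 and 3.00 added, the log2 ratio was 0.61 instead of 0.65. *Hadh*, which encodes the dehydrogenase of the third step, had 52.8, 43.9 and 54.9. *Decr1* and *Eci1*, which encode auxiliary enzymes for unsaturated chains, had 23.8, 22.7 and 17.8 and 23.3, 18.7 and 15.1, and *Eci1* was 1.54-fold lower at BDL day 14 than at Day 0, within 2 times its spread.

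The electron transfer flavoprotein takes electrons from the dehydrogenases, and its subunits are joined in equal number. *Etfa* had means of 35.6, 21.8 and 36.3 and was 1.63-fold lower at BDL day 3 than at Day 0 and 1.67-fold higher at BDL day 14 than at BDL day 3, both over 2 times its spread. *Etfb* had 120, 135 and 67.4 and was 2.00-fold lower at BDL day 14 than at BDL day 3, at 2.16 times its spread. *Etfdh*, which encodes the oxidoreductase that passes the electrons on, had 24.8, 20.3 and 18.5 and stayed within the fold. The subunits of the flavoprotein thus had unlike courses between BDL day 3 and BDL day 14. The values of *Etfb* are uncertain, since 67.3% of its 50-base words are shared with *Gm45233*, an overlapping gene on the same strand.

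*Bdh1*, which encodes the mitochondrial β-hydroxybutyrate dehydrogenase of ketone body synthesis and use, had 17.7, 1.07 and 1.23. It was 16.5-fold lower at BDL day 3 and 14.4-fold lower at BDL day 14 than at Day 0, at 4.42 and 4.20 times its spread. Its highest library (23.4) could only belong to Day 0, and its removal took the log2 ratios from -4.05 and -3.85 to -3.79 and -3.59. At BDL day 3 its log2 ratio was below those of all 12 hepatocyte genes, also without that library. The 9 mesenchymal genes had median log2 ratios of -5.88 at BDL day 3 and -3.34 at BDL day 14 against Day 0. The part of either cell type in the values of *Bdh1* was not tested. *Pdk4*, which encodes a kinase that shuts pyruvate dehydrogenase when fat is burned, had 10.8, 3.42 and 5.08 and was 3.16-fold and 2.13-fold lower, within 2 times its spread of 0.90.

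**Figure D3:**
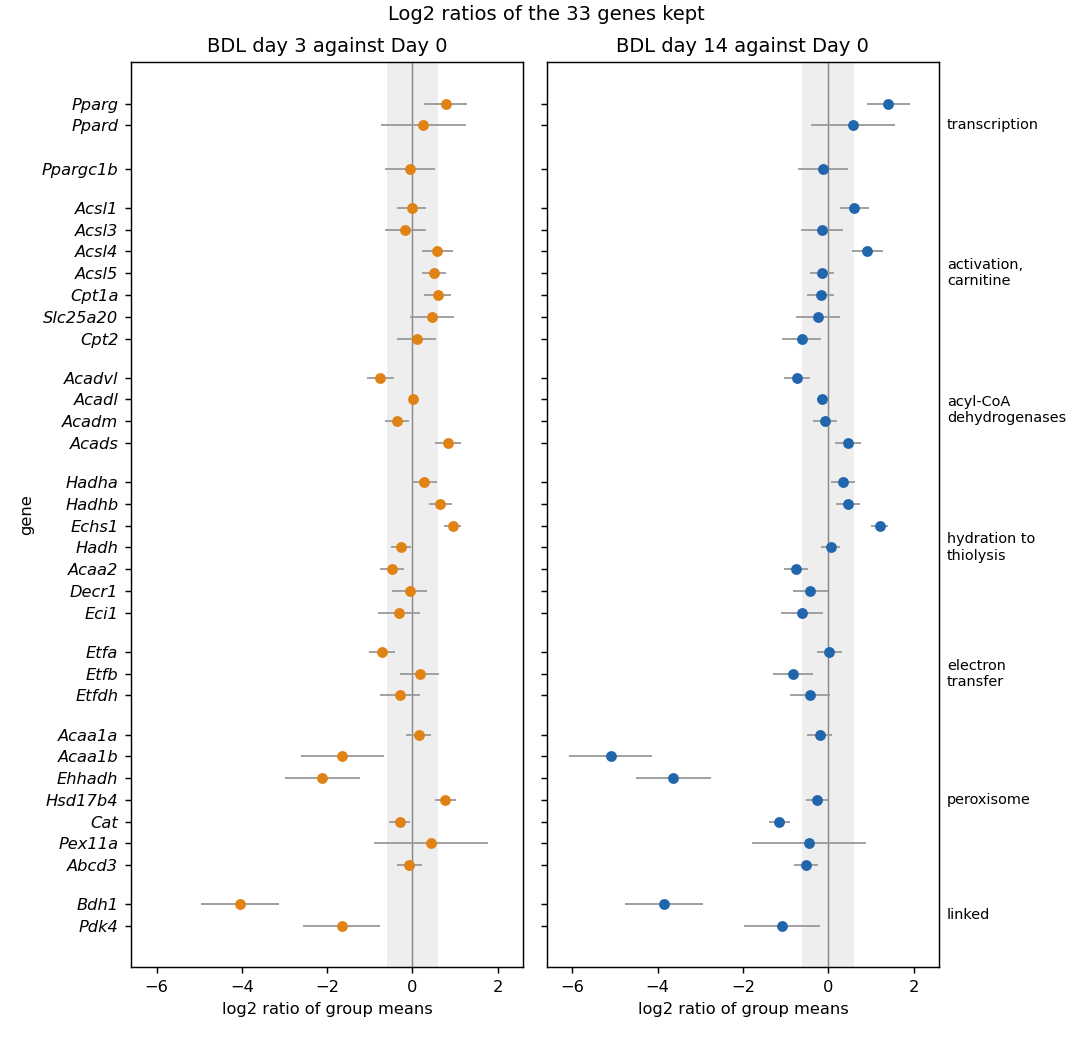
Log2 ratio of group means against Day 0 for the 33 genes kept, at BDL day 3 (left) and BDL day 14 (right), ordered by role. Bars extend 1 within-group spread (approximate pooled SD of log2 values of single libraries, not a confidence interval) to each side, and the grey band is the 1.5-fold range. *Acaa1b*, *Ehhadh* and *Bdh1* lie far to the left in both panels, and *Echs1* and *Pparg* lie to the right of the band.

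Over the set, the share of genes past the fold lay below or close to that of all genes in each direction, apart from the lower genes between the BDL groups. At BDL day 3 against Day 0, 6 of the 33 genes were higher (*Pparg*, *Cpt1a*, *Acads*, *Hadhb*, *Echs1* and *Hsd17b4*), 18.2% against 19.2% of the 12889 genes counted, and 6 were lower (*Acadvl*, *Etfa*, *Acaa1b*, *Ehhadh*, *Bdh1* and *Pdk4*), 18.2% against 29.2%. With the stricter description, 4 were higher and 4 lower, 12.1% each against 8.69% and 10.9% of all genes. *Cpt1a* lay just past the fold and *Acsl4* just inside it. With quantile normalization *Cpt1a* (log2 ratio 0.40), *Hadhb* and *Hsd17b4* were within the fold, while *Ppard* (0.59), *Ppargc1b* (0.76) and *Pex11a* (0.99) were higher and *Acaa2* (-0.70) was lower.

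Between BDL day 14 and Day 0, 4 genes were higher (*Pparg*, *Acsl1*, *Acsl4* and *Echs1*), 12.1% against 21.2% of all genes. Lower were 10 (*Cpt2*, *Acadvl*, *Acaa2*, *Eci1*, *Etfb*, *Acaa1b*, *Ehhadh*, *Cat*, *Bdh1* and *Pdk4*), 30.3% against 28.8%. Of these, 3 and 6 also exceeded 2 times their spread, 9.09% and 18.2% against 9.67% and 12.0% of all genes.

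Between BDL day 14 and BDL day 3, 3 genes were higher (*Pparg*, *Acsl1* and *Etfa*), 9.09% against 21.2% of all genes, and 10 were lower (*Acsl5*, *Cpt1a*, *Slc25a20*, *Cpt2*, *Etfb*, *Acaa1b*, *Ehhadh*, *Hsd17b4*, *Cat* and *Pex11a*), 30.3% against 19.7%. With the stricter description, 1 was higher and 6 were lower, 3.03% and 18.2% against 7.60% and 7.21% of all genes. With quantile normalization *Pparg* (0.56) and *Acsl5* (-0.48) were within the fold here. Both comparisons with Day 0 rest on the same Day 0 libraries. The median log2 ratio of the 33 genes was -0.01 and -0.20 in the comparisons with Day 0 and -0.19 between the BDL groups, where all genes counted had -0.02, -0.04 and -0.0031. In all 3 comparisons, 11 of the 33 genes stayed within the fold, as did 30.6% of all genes.

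Other genes of the pathway were read from 7 lists, whose counts stand beside the shares of all genes: at BDL day 3, 19.2% were higher and 29.2% lower than Day 0, and at BDL day 14 these were 21.2% and 28.8%. Of 29 other peroxisomal enzymes and transporters, 15 were lower and 3 higher at BDL day 3 than at Day 0, and 18 were lower and 3 higher at BDL day 14. The lower genes were thus 51.7% and 62.1% of the list and the higher 10.3% each time, with a median log2 ratio of -0.67 and -0.88. *Uox*, urate oxidase, had means of 61.5, 12.6 and 4.00, and *Agxt*, which removes glyoxylate, had 12.5, 3.11 and 0.754. Both are enzymes best known from hepatocytes. *Scp2*, whose products bind sterols and split branched chains, had 224, 235 and 122, *Phyh*, the first enzyme of α-oxidation, 108, 74.1 and 39.0, *Ech1* 97.1, 76.8 and 73.3 and the antioxidant *Prdx5* 370, 590 and 354. *Acox3*, an oxidase of branched chains, had 20.0, 24.1 and 40.5 and *Abcd2*, a transporter, 18.6, 21.4 and 35.1, which made them the members of the list with the highest ratios at BDL day 14 among those with a mean of at least 10.

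Genes that build and divide peroxisomes had a median above 0. Of 18, 6 were higher and 4 lower at BDL day 14 than at Day 0 (4 and 1 at BDL day 3), with a median log2 ratio of 0.37 (0.36 at BDL day 3). At BDL day 14 the higher genes were 33.3% of them and the lower 22.2%, against 21.2% and 28.8% of all genes, and at BDL day 3 they were 22.2% and 5.56%, against 19.2% and 29.2%. *Pex3*, an early factor of membrane assembly, had 6.80, 13.9 and 14.2, *Pex7*, an import receptor, 9.07, 11.9 and 16.3 and *Pex6*, which recycles import receptors, 26.1, 12.4 and 8.41. *Pex13* had 20.0, 20.4 and 34.8 and *Pex2* 21.5, 29.8 and 31.7. The division genes shared with mitochondria, *Fis1* (105, 115 and 111), *Mff* (40.9, 43.7 and 59.5) and *Dnm1l* (26.6, 21.5 and 17.8), were within the fold at both times.

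Of 8 ketone body genes, 2 were higher and 3 lower at BDL day 3 than at Day 0, and 3 were higher and 2 lower at BDL day 14. That is 25% and 37.5% of so short a list, then 37.5% and 25%. *Acat1*, the mitochondrial acetoacetyl-CoA thiolase, had 50.8, 25.3 and 37.4. *Oxct1*, which starts ketone use and is absent from healthy hepatocytes, had 57.4, 59.4 and 87.6 and the transporter gene *Slc16a6* 7.04, 12.4 and 16.7.

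Of 27 other acyl-CoA and carnitine enzymes, 4 were higher and 11 lower than Day 0 at BDL day 3, and 4 higher and 13 lower at BDL day 14 (median log2 ratio -0.40 and -0.36). The lower made up 40.7% and 48.1%, where all genes had 29.2% and 28.8%, and the higher 14.8% each time. *Cd36*, a fatty acid uptake receptor of macrophages and endothelium, had the list's highest means, 70.8, 208 and 319. The medium-chain synthetases *Acsm1* (10.1, 2.16 and 1.06) and *Acsm3* (11.4, 1.54 and 0.668) had its lowest ratios at BDL day 14 by the same minimum. *Crat* had 17.1, 26.1 and 26.5, *Crot*, its peroxisomal relative, 37.5, 15.9 and 20.8, *Eci2* 51.1, 63.0 and 54.8 and the thioesterase gene *Acot13* 36.0, 24.9 and 23.1.

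Of 18 other genes listed here as PPAR targets, 3 were higher and 8 lower at BDL day 3 than at Day 0. At BDL day 14, 1 was higher and 11 were lower, and the median log2 ratios were -0.41 and -0.81. Whether PPARs control each of these genes, in the sorted cells or elsewhere, was not tested. In percent, 44.4% and then 61.1% of these were lower, beside 29.2% and 28.8% of all genes, and 16.7% and 5.56% were higher. *Fabp1*, the fatty acid binding protein of hepatocytes, had 188, 6.00 and 0.138, the last of them at the floor, so that its Day 0 mean was at least 770-fold above it. *Angptl4*, an inhibitor of lipoprotein lipase, had 18.9, 14.9 and 2.55. *Lpl*, lipoprotein lipase itself, had 540, 1250 and 680 and *Pltp*, a phospholipid transfer protein, 609, 1110 and 279. *Ucp2* had 654, 789 and 463, *Txnip* 463, 589 and 539 and *Pdk1*, a relative of *Pdk4*, 19.2, 19.8 and 34.1.

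Among 22 partners and coregulators of the receptors, 3 were higher and 4 lower than Day 0 at BDL day 3, and 2 higher and 3 lower at BDL day 14 (median log2 ratio 0.0007 and -0.25). All 4 shares, 13.6% and 18.2% and then 9.09% and 13.6%, were below those of all genes. *Rxra*, the obligate partner of the PPARs, had 121, 205 and 89.2 and *Rxrb* 33.3, 39.8 and 35.8. *Nr1h3*, the liver X receptor gene known from Kupffer cells, had 274, 457 and 34.9, highest at BDL day 3 and lowest at BDL day 14 like the 5 Kupffer cell genes. *Ncor1*, a corepressor, had 39.7, 27.1 and 26.8, and the mitochondrial gene regulators *Nrf1* and *Gabpa* had 9.74, 13.8 and 15.6 and 13.0, 13.1 and 27.8.

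In the opposing pathway of fatty acid synthesis, 6 of 13 genes were higher and 4 lower than Day 0 at BDL day 3, and 3 higher and 4 lower at BDL day 14 (median log2 ratio 0.34 and -0.01). At BDL day 3 the higher were 46.2% against 19.2% of all genes and at BDL day 14 23.1% against 21.2%, while 30.8% were lower at each time against 29.2% and 28.8%. *Scd2*, a desaturase, had 22.4, 94.7 and 83.6 and *Scd1* 47.5, 183 and 28.8. *Acly*, which makes cytosolic acetyl-CoA, had 115, 226 and 94.1, *Acaca*, the enzyme after it, 7.57, 13.8 and 14.4 and *Elovl1* 44.4, 80.8 and 62.3. *Thrsp*, a lipogenic protein, had 15.9, 2.98 and 1.39 and *Fads2* 17.2, 5.57 and 5.57.

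**Figure D4:**
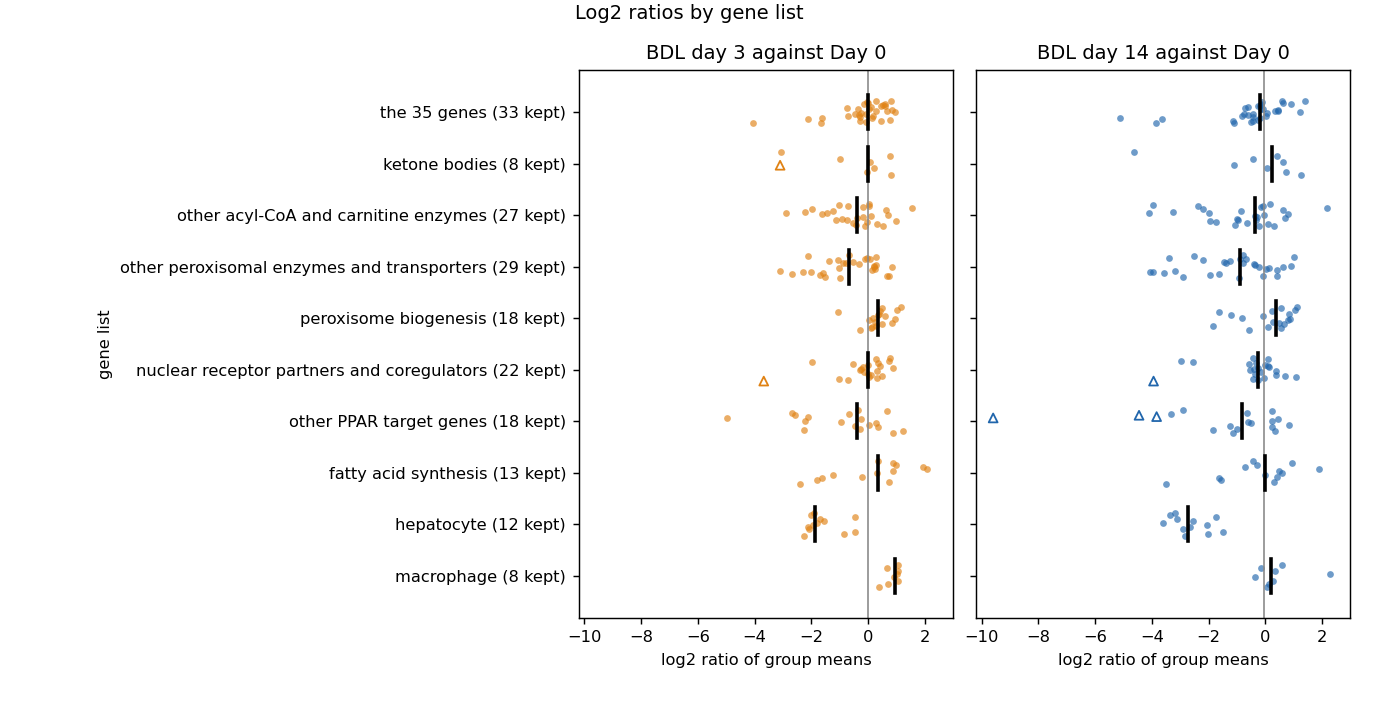
Log2 ratio of group means against Day 0 at BDL day 3 (left) and BDL day 14 (right), 1 point per gene kept. Black bars are list medians, the grey line is the median of all genes counted, and open triangles are genes with a mean at the floor, drawn at their bound. The 33 genes of the set that were kept centre near 0 with a tail of low values, the other peroxisomal enzymes lie lower (medians -0.67 and -0.88), and the hepatocyte markers lowest of the lists plotted (-1.86 and -2.73).

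RefSeq promoter windows, from 250 bases before to 50 after the start, were matched for 31 of the 35 genes, and not for *Ppargc1b*, *Acaa2*, *Decr1* and *Hsd17b4*. On either strand, GGGCGG was in the windows of 23 of the 31 genes, against 35.7% of 32851 single windows of all genes. CCAAT was in those of 15, against 37.4%. A gene was counted if any of its windows matched, so genes are set beside single windows here. TATAA was in 2 (*Pparg* and *Acaa1b*), against 24.9%. AGGTCA, the hexamer that nuclear receptors bind, was in 6 (*Pparg*, *Cpt1a*, *Acadvl*, *Acadm*, *Echs1* and *Cat*), against 16.3%. A direct repeat of AGGTCA with any 1 base between, which contains that hexamer, was in 0 of the 31, against 0.0396%. Of the 3 genes printed above, *Acaa1b* was without a GC box in its whole window. These are matches of letters in short windows and were not tested against the expression values.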

How the data were processed

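GFP(+) cells were sorted by FACS and their mRNA was sequenced from TruSeq libraries. In Partek Flow, the authors trimmed reads by quality and length, mapped them with STAR (version 2.6.1d per the labels, while the methods name another) to mm10, quantified GENCODE M18 genes and scaled the counts to the upper quartile. The deposited values are signal: least squares means per group for 3 groups, the arithmetic and geometric means of all libraries together, and an unnamed library's count, the maximum. There are 0 columns of single libraries. Strandedness of the counting is not given in the sources used here. Further columns give results of the authors' own 3 comparisons between groups (p-values, FDR, ratios, fold changes and confidence limits). They were not used, so no p-value is printed.

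Ratios of group means were computed with Python 3.11.15, numpy 2.4.6 and pandas 2.3.3. Genes were counted where normalized counts summed to at least 10, and called past a ratio of 1.5. A mean up to 4 times the lowest of its group (0.512, 0.292 and 0.244) was read as the floor, and a fold against it is a bound. The stricter description, over 2 times the within-group spread, was added after the data were seen, as was the sum with a pseudogene. The spread was checked on simulated data, drawn with the same SD in every group and without counting error. This check does not cover genes with low counts or groups of unlike spread. A gene's highest library was assigned to a group only if no other group's summed counts could contain it. Levels between genes are per kilobase of 1 principal transcript per gene of GENCODE M21. The coordinates of all 35 genes were the same in GENCODE M21 (GRCm38). The words shared between genes were 50 bases long, sense strand, over all GENCODE M21 transcripts.

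The members, the 7 pathway lists and the 8 marker lists were chosen with earlier results of these data known. All 35 members are named, and of each pathway list the up to 4 genes with the highest mean and, among genes with a mean of at least 10 in some group, the 2 highest and 2 lowest by log2 ratio at BDL day 14 against Day 0. Some genes that this rule picks are not reported here. The marker genes named stand for their lists, and *Gm13910* and *Gm45233* were found by sequence. Alternatives were no minimum, a mean of at least 10, a pseudocount of 1, median-ratio scaling, quantile normalization, a fold above 2 and leaving out the highest library where placed.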

Additional observations from a re-analysis of the deposited data

How the results depend on the processing

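No paired analysis was possible because the table holds no value for a single library, and for the same reason no replicate could be left out in turn. Of the 105 log2 ratios of single genes (35 genes in 3 comparisons), none changed direction as a called value, 6 moved by over their spread with a pseudocount of 1 and 9 with quantile normalization. That normalization also moved the median of all genes to 0.11 at BDL day 3 against Day 0, from -0.02. The counts of genes past the fold depended most on the fold itself. With a fold above 2, 4 of 33 genes were past it at BDL day 3 against Day 0 (0 higher), 7 at BDL day 14 against Day 0 (2 higher and 5 lower) and 4 at BDL day 14 against BDL day 3 (0 higher and 4 lower). With the added condition of 2 times the spread, 9 genes were called at BDL day 14 against Day 0 (6 lower) and 7 at BDL day 14 against BDL day 3 (1 higher and 6 lower). A mean of at least 10 left 3 genes lower at BDL day 3 against Day 0. The share of all genes was not computed for a fold above 2 or for a mean of at least 10. Counts under those settings show only how the setting acts and are not results about the set. No minimum, the pseudocount, both scalings and leaving out the highest library kept every count within 1.5 times its value, but not always the same genes. Quantile normalization took away 3 calls and added 4 at BDL day 3 against Day 0, took away *Cpt2* and added *Ppard* (0.83) at BDL day 14 against Day 0, and took away *Acsl5* and *Pparg* between the BDL groups. A pseudocount of 1 took away *Cpt1a* (0.58), *Cpt2* and, between the BDL groups, *Pparg* (0.58), and median-ratio scaling added *Acsl4* (0.61) at BDL day 3 and *Ppard* (0.61) at BDL day 14. Leaving out the highest library changed no call. Both comparisons with Day 0 rest on 3 libraries whose separate values are not given, and counting error could not be computed.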
